A study of Mus musculus with 6 samples.

Results

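The 9 genes described here encode enzymes that carry fatty acids into mitochondria, shorten them there, or release them from coenzyme A. They were chosen by gene name, from 20788 genes listed in at least 1 library: *Cpt1a*, *Cpt2*, *Acadm*, *Acadl*, *Acadvl*, *Hadha* and *Hadhb* for oxidation, and the acyl-CoA thioesterases *Acot1* and *Acot2*. All 9 were listed in all 6 libraries, and all 9 had a mean over the libraries of at least 0.1 FPKM, the minimum for testing. FPKM are fragment numbers scaled by transcript length and sequencing depth. The libraries are polyadenylated RNA of Tyr-H and Tyr-L cells, 3 each. Both are subclones of B16, a pigmented melanoma line from C57BL/6 mice, and they were separated by high (Tyr-H) or low (Tyr-L) tyrosinase activity, with no treatment or genetic change in either group. The subclones were grown from single cells in the same low-glucose medium with serum. The sources used here do not say whether a group is 1 subclone or several, or whether its libraries came from separate cultures, so p-values measure only the spread between these libraries.

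Long-chain fatty acids are burned in mitochondria by β-oxidation, a cycle of reactions that removes acetyl-CoA from an activated fatty acid. *Cpt1a* and *Cpt2* encode the carnitine palmitoyltransferases of the outer and inner mitochondrial membrane, which hand the acyl chain to carnitine and back to coenzyme A. The acyl-CoA dehydrogenases start each turn of the cycle, and the trifunctional protein, made of Hadha and Hadhb subunits, completes the turn for long chains. Thioesterases do the reverse of activation and free the fatty acid from coenzyme A.

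The tyrosinase gene *Tyr* was at 10.0 ± 0.602 FPKM in Tyr-L and 21.3 ± 2.14 in Tyr-H (mean ± SD, n = 3 each, as for all means below), which is in the direction of the labels (log2 fold change 1.08). The other 6 markers of the melanocyte lineage were lower in Tyr-H at an adjusted p up to 0.05 (limma): *Mitf* at -1.85, *Pmel* at -0.73, *Dct* at -0.64, *Sox10* at -0.57, *Mlana* at -0.24 and *Tyrp1* at -0.23. The last pair came to -0.09 and -0.08 after median ratio scaling and no longer passed the test (adjusted p = 0.062 and 0.23, limma), which left 4 lower. All 7 markers reached 1 FPKM, with a summed level of 7343 to 7660 FPKM in Tyr-L and 5438 to 5958 in Tyr-H. Of 5 immune markers 4 were unlisted in every library, no endothelial or epithelial marker was above 0.0540 FPKM, and the fibroblast markers summed to 0.499 to 0.582 FPKM in Tyr-L and 0.788 to 0.899 in Tyr-H. A rough depth, the median of low values inside a preset window, came to 18800000 to 21400000 fragments per library. The choice of window bounds that figure. On it the members rested on about 255 (*Acot2* in Tyr-L) to 8869 (*Hadha* in Tyr-H) fragments, which is a rough guide only.

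Of the 9 genes, 1 met both criteria for a call (adjusted p no higher than 0.05, change no smaller than 2-fold): *Acot2*, higher in Tyr-H. Calls were made for 8.75% of the 14336 tested genes, and for 2.96% in that direction. No member was called lower, against 5.78% of all tested genes (limma on log2(FPKM + 0.1), adjusted over all tested genes). In bulk RNA, fewer cells that express a gene and less RNA per cell cannot be told apart. Without the 2-fold condition, 4 members were higher in Tyr-H (*Acot2*, *Hadha*, *Acadvl*, *Hadhb*), against 17.9% of all tested genes, and 3 were lower (*Acot1*, *Acadm*, *Acadl*), against 39.9%. *Cpt1a* and *Cpt2* did not pass the test, so 7 of 9 passed it in either direction, against 57.8% of all tested genes. The groups did not overlap in the same 7 members, 4 higher and 3 lower in Tyr-H. Over all tested genes the groups did not overlap in 64.0%, with 20.2% higher and 43.8% lower. For each of these 7 the exact permutation test, two-sided, gave p = 0.1, the smallest value that 3 against 3 libraries allow. The median log2 fold change of the members was 0.00 and that of all tested genes was -0.15, so the scale of the values bears on small differences. Scaling by median ratios moved the median of all genes to -0.01. With it, 5 members were higher, against 27.9% of all tested genes, and 3 lower, against 27.0%. *Acot2* was again the 1 member called, where calls were made for 3.80% of all genes in the higher and 4.05% in the lower direction.

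**Figure D1:**
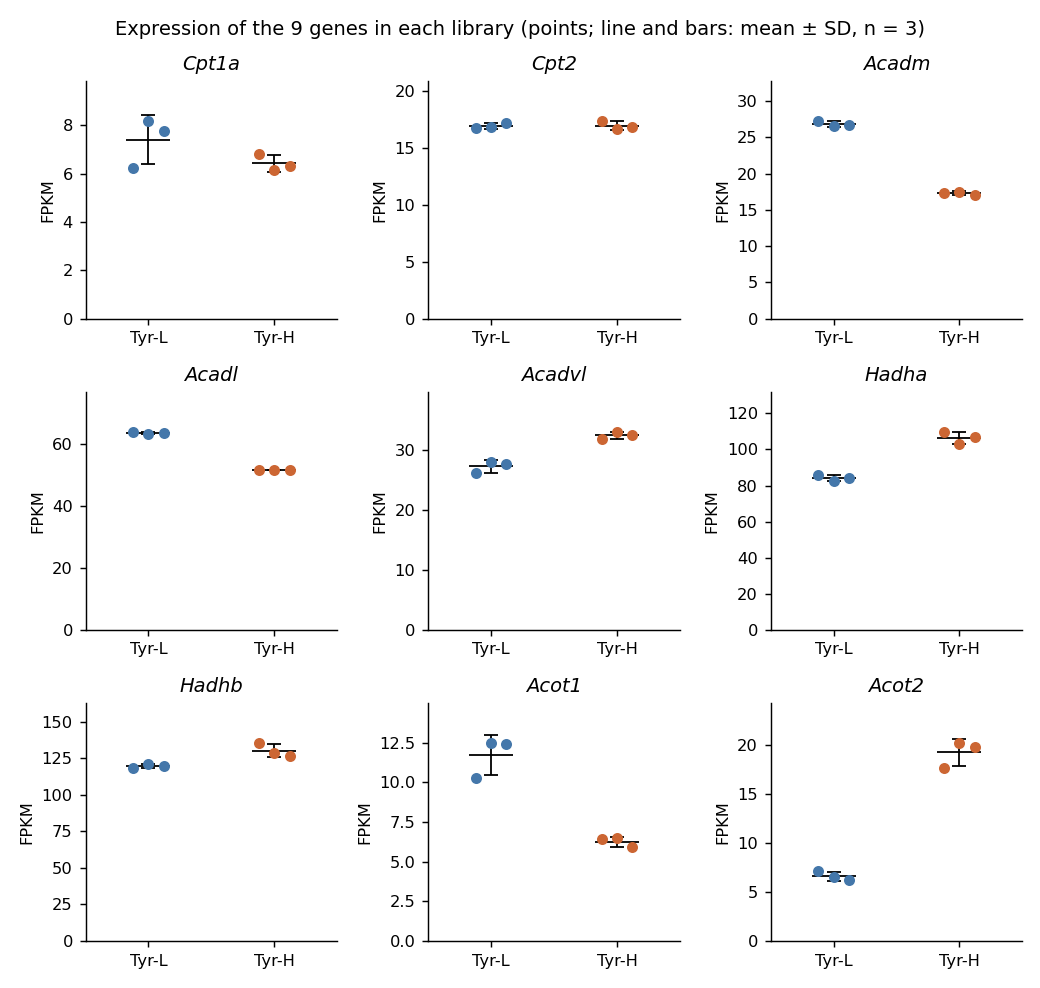
FPKM of each of the 9 genes by library, with 1 point per library for Tyr-L and Tyr-H (n = 3 each) and lines for the group mean ± SD. By fold change, *Acot2* separated most in the upward direction (6.18 to 7.11 against 17.7 to 20.2 FPKM), while the points of *Cpt1a* and *Cpt2* overlapped.

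Per length of transcript, *Hadhb* had the highest level in both groups, followed by *Hadha* and *Acadl*. In Tyr-L the order went on with *Acadvl*, *Acadm*, *Cpt2*, *Acot1*, *Cpt1a* and *Acot2*. *Acadvl* and *Acadm* overlapped there, and so did *Cpt1a* and *Acot2*. In Tyr-H the order after *Acadl* was *Acadvl*, *Acot2*, *Acadm*, *Cpt2*, *Cpt1a* and *Acot1*. There *Acadm* and *Cpt2* overlapped, and so did *Cpt1a* and *Acot1*. *Acot2* thus stood last of the 9 in Tyr-L and after only *Hadhb*, *Hadha*, *Acadl* and *Acadvl* in Tyr-H.

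Neither gene of the entry step passed the test. *Cpt1a* (chr19:3322334-3385733, plus strand, GRCm38), which encodes the rate-controlling enzyme of entry, was at 6.25, 8.20 and 7.78 FPKM in Tyr-L and at 6.83, 6.13 and 6.33 in Tyr-H. Only the first Tyr-L library lay among the Tyr-H values. The log2 fold change was -0.19 (SE 0.10, 95% confidence interval -0.42 to 0.04, adjusted p = 0.13, limma). Without that Tyr-L library it was -0.31 with an adjusted p of 0.011, and without Tyr-L replicate 2 it was -0.12 with an adjusted p of 0.38. After median ratio scaling it was -0.04 (adjusted p = 0.76, limma). *Cpt2* (chr4:107903981-107923610, minus strand) was at 16.7, 16.8 and 17.2 FPKM in Tyr-L and at 17.4, 16.7 and 16.8 in Tyr-H. Its groups overlapped, with a log2 fold change of 0.00 (SE 0.04, 95% confidence interval -0.09 to 0.10, adjusted p = 0.94, limma). After median ratio scaling it was 0.16 with an adjusted p of 0.015. Since the median gene lay at -0.15, a gene with equal FPKM in both groups ranked above the median gene.

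The 3 acyl-CoA dehydrogenases differ in the chain length they accept, and they did not move together. *Acadm* (chr3:153922357-153944632, minus strand), for medium chains, was at 27.3, 26.5 and 26.7 FPKM in Tyr-L and at 17.3, 17.5 and 17.0 in Tyr-H. Every Tyr-H library was below every Tyr-L library, and the log2 fold change was -0.63 (SE 0.04, 95% confidence interval -0.72 to -0.54, adjusted p = 2e-06, limma). *Acadl* (chr1:66830839-66863277, minus strand), for long chains, was at 63.9, 63.1 and 63.6 FPKM in Tyr-L and at 51.5, 51.6 and 51.7 in Tyr-H. It also fell without overlap, by a log2 fold change of -0.30 (SE 0.03, adjusted p = 3.2e-05, limma). Relative to the shift of the median gene this was smaller, -0.15 after median ratio scaling (adjusted p = 0.003, limma). *Acadvl* (chr11:70010183-70015411, minus strand), for very long chains and bound to the inner membrane, was at 26.1, 28.1 and 27.7 FPKM in Tyr-L and at 31.9, 33.1 and 32.5 in Tyr-H. It was higher in every Tyr-H library, with a log2 fold change of 0.25 (SE 0.04, 95% confidence interval 0.16 to 0.34, adjusted p = 0.00067, limma). It was 0.40 after median ratio scaling (adjusted p = 3.9e-05, limma) and 0.16 at an equal total (adjusted p = 0.021, limma).

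*Acadvl* overlaps *Dvl2* on the opposite strand over 2119 bases, and whether reads were assigned by strand is not given in the sources used here, so its value is uncertain. *Dvl2* was at 11.5 to 12.6 FPKM in Tyr-L and 8.34 to 8.79 in Tyr-H, the opposite direction to *Acadvl*. The other overlaps of the oxidation members are with *Garem2* for *Hadha* (75 bases, at most 0.85 FPKM), with the pseudogene *Gm15793* for *Acadl* (at most 0.16 FPKM) and with small RNA genes. The deposited tables give *Acadvl* and *Hadha* loci that reach past the annotated ends of both genes, chr11:70000594-70015411 and chr5:30103583-30155162 as the tables write them, so their values may rest on a longer stretch than the annotated gene.

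Within each library, the 3 dehydrogenases summed to 117.3 to 118.0 FPKM in Tyr-L and 100.7 to 102.2 in Tyr-H. *Acadvl* made up 22.3 to 23.8% of that sum in Tyr-L and 31.7 to 32.4% in Tyr-H. The share of *Acadm* was 22.6 to 23.3% in Tyr-L and 16.8 to 17.2% in Tyr-H, and that of *Acadl* was 53.6 to 54.5% and 50.5 to 51.1%. Thus the sum held a larger part of the very-long-chain gene in Tyr-H, without overlap of the libraries. The shares do not depend on how libraries are scaled, but the sum does. The log2 ratio of its group means was -0.21 (101.4 ± 0.721 against 117.7 ± 0.330 FPKM), and it was -0.06 after median ratio scaling and -0.31 at an equal total, with no overlap under any of these scales.

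The trifunctional protein genes were both higher in Tyr-H. *Hadha* (chr5:30118304-30155162, minus strand) encodes the subunit with hydratase and dehydrogenase activity. It was at 85.9, 82.3 and 84.0 FPKM in Tyr-L and at 109.8, 103.2 and 106.9 in Tyr-H, a log2 fold change of 0.34 (SE 0.04, 95% confidence interval 0.26 to 0.42, adjusted p = 3.6e-05, limma). *Hadhb* (chr5:30155248-30184593, plus strand) encodes the thiolase subunit. It was at 118.1, 121.0 and 119.9 FPKM in Tyr-L and at 135.4, 128.4 and 126.5 in Tyr-H, a log2 fold change of 0.12 (SE 0.03, 95% confidence interval 0.04 to 0.20, adjusted p = 0.015, limma). *Hadhb* missed the test when the values were scaled to an equal total (0.03, adjusted p = 0.65), and, at much the same fold change, without a variance trend (0.12, adjusted p = 0.068) and without Tyr-L replicate 1 (0.11, adjusted p = 0.052). After median ratio scaling it was 0.27 (adjusted p = 0.00023, limma).

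The ratio of *Hadha* to *Hadhb* does not depend on how libraries are scaled. It was 0.727, 0.680 and 0.701 in Tyr-L and 0.811, 0.803 and 0.845 in Tyr-H, with no overlap. The difference in log2 ratio was 0.22, from -0.51 ± 0.05 to -0.29 ± 0.04 (SD, n = 3 each). The two-sided exact permutation test gave p = 0.1. The 7 oxidation genes together summed to 344.2, 346.1 and 346.8 FPKM in Tyr-L and to 370.2, 356.6 and 357.7 in Tyr-H. The direction of this difference depended on the scale. The log2 ratio of the group means was 0.06 as deposited and 0.22 after median ratio scaling, both without overlap, and -0.03 at an equal total, where the groups overlapped. *Hadha* and *Hadhb* together held 58.8 to 59.2% of that sum in Tyr-L and 65.0 to 66.2% in Tyr-H.

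The starts of *Hadha* and *Hadhb* lie head to head, and the 85 bases between them are shown because these 2 genes, divergent from 1 short stretch, differed in the size of their increase. They come from RefSeq's GRCm38.p6, plus strand, with none of the motifs searched below.
Between Hadha and Hadhb, chr5:30155163-30155247: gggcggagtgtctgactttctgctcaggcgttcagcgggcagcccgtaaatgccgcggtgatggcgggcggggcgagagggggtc

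Promoter windows of 250 bases before to 50 after the start were found for all 9 members in RefSeq (GRCm38.p6) and searched on both strands. The direct repeat of AGGTCA with 1 base between the copies, a form of the element that PPAR and RXR receptors bind, was in none of them and in 0.0396% of all 32851 windows. A single AGGTCA, which is part of that repeat, was in the windows of *Cpt1a*, *Acadm* and *Acadvl*, and in 16.3% of all windows. CCAAT was in the windows of *Cpt1a*, *Acot1* and *Acot2*, and in 37.4% of all. The other motifs were in no member. Of these CACGTG, an E-box, was in 7.15% of all windows, and CATGTG, an E-box form read by Mitf, was in 14.2%. TGATGNAA, from the element of ATF4 and CHOP, was in 3.97% and the cAMP response element TGACGTCA in 1.79%. The palindrome of NRF1 was in 0.971%, and TCAAGGTCA, the element of estrogen-related receptors that itself holds AGGTCA, was in 0.423%.

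**Figure D2:**
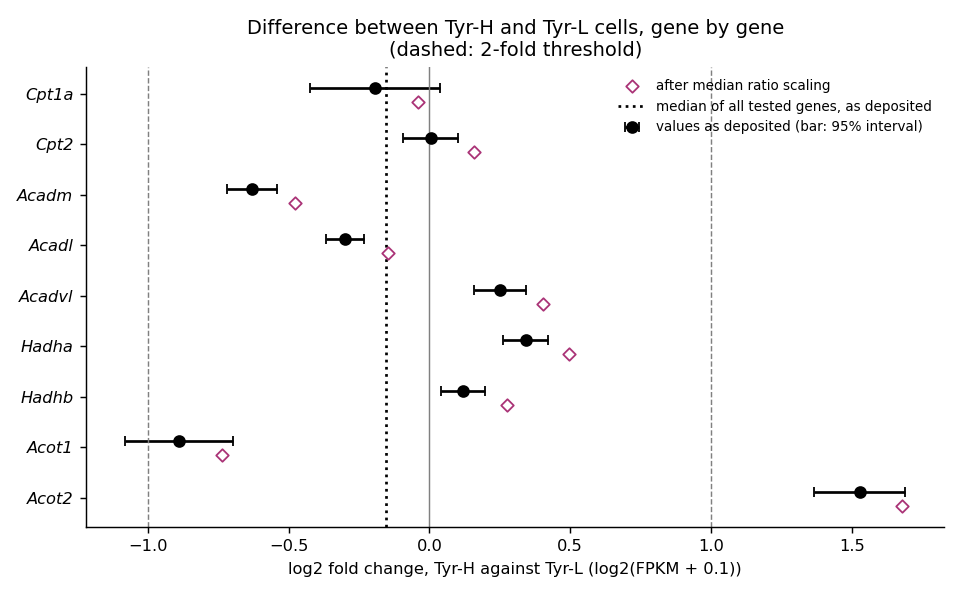
Log2 fold change in Tyr-H against Tyr-L of the 9 genes (black points with 95% confidence intervals from limma), the same after median ratio scaling (open diamonds), the median of all tested genes (dotted) and the 2-fold threshold (dashed). *Acot2* was at 1.53, *Acot1* at -0.89 and *Acadm* at -0.63, and the intervals of *Cpt1a* and *Cpt2* include 0.

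The thioesterase paralogs differed most by fold change, in opposite directions. *Acot1* (chr12:84009490-84018371, plus strand) encodes a cytosolic long-chain acyl-CoA thioesterase. It was at 10.3, 12.5 and 12.4 FPKM in Tyr-L and at 6.42, 6.47 and 5.89 in Tyr-H. Every Tyr-H library was below every Tyr-L library, with a log2 fold change of -0.89 (SE 0.08, 95% confidence interval -1.08 to -0.70, adjusted p = 2.3e-05, limma), short of 2-fold. *Acot2* (chr12:83987861-83993873, plus strand) encodes the mitochondrial enzyme of the same type. It was at 7.11, 6.57 and 6.18 FPKM in Tyr-L and at 17.7, 20.2 and 19.9 in Tyr-H. The Tyr-H mean was 2.91 times the Tyr-L mean, with a log2 fold change of 1.53 (SE 0.07, 95% confidence interval 1.36 to 1.69, adjusted p = 5.1e-07, limma), above 98.7% of all tested genes.

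In each Tyr-L library *Acot1* exceeded *Acot2*, and in each Tyr-H library *Acot2* exceeded *Acot1*. The ratio of *Acot2* to *Acot1* was 0.692, 0.527 and 0.499 in Tyr-L and 2.76, 3.13 and 3.37 in Tyr-H. The difference in log2 ratio, with 0.1 FPKM added to both genes, was 2.42 (-0.81 ± 0.25 against 1.61 ± 0.14, SD, n = 3 each), with p = 0.1 by the two-sided exact permutation test. *Acot2* held 33.3 to 40.9% of the sum of both in Tyr-L and 73.4 to 77.1% in Tyr-H. The sum itself was 17.4, 19.0 and 18.6 FPKM in Tyr-L and 24.1, 26.7 and 25.7 in Tyr-H, and so was higher in Tyr-H without overlap. The log2 ratio of its group means was 0.48, and it was 0.63 after median ratio scaling and 0.38 at an equal total, also without overlap.

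**Figure D3:**
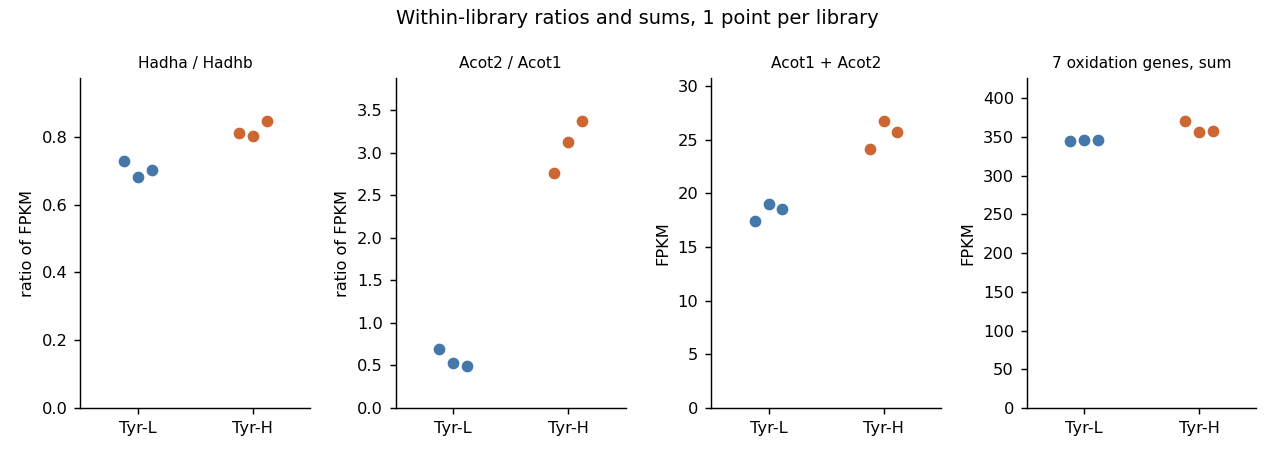
Ratios and sums within each library, 1 point per library (n = 3 per group), on axes that start at 0. The ratio of *Acot2* to *Acot1* lay below 1 in every Tyr-L library and at 2.76 or above in every Tyr-H library.

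*Acot1* and *Acot2* are close copies, so reads that fall in shared stretches could be assigned to either gene. Their coding sequences have 1260 and 1362 bases (419 and 453 codons before the stop), and 1180 of 1239 aligned bases were identical (95.2%). The sequences below show where the 2 genes can and cannot be told apart. They are read from the GRCm38 genome, plus strand. *Acot2* opens with 123 bases (41 codons, in capitals) that have no counterpart in *Acot1*, at the end of the protein where the mitochondrial enzyme carries its targeting signal. In the *Acot1* line, capitals mark bases that differ from *Acot2*.
Acot2 coding start, chr12:83987902-83988072: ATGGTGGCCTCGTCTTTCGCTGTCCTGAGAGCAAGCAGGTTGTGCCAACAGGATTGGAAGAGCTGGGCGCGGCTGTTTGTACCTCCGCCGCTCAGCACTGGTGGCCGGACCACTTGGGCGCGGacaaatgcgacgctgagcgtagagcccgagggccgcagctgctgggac
Acot1 coding start, chr12:84009510-84009557: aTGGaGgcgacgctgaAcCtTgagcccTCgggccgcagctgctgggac

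The coding stretch in which the genes differ most holds 14 differences in 90 bases, in capitals in both lines.
Acot2, chr12:83992638-83992727: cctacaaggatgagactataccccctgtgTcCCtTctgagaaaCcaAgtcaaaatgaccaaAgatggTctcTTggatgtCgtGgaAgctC
Acot1, chr12:84016916-84017005: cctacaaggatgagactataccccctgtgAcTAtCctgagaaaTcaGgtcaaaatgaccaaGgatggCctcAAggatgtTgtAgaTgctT

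The longest identical run follows directly. It has 273 bases, at chr12:83992728-83993000 in *Acot2* and chr12:84017006-84017278 in *Acot1*.
Shared run, both genes: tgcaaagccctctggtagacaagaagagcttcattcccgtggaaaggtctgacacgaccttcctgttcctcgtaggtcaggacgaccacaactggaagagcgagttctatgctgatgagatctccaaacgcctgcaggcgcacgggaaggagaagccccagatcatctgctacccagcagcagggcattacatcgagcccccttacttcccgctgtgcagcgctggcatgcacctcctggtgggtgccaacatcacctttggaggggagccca

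Over the whole transcripts, 10.2% of the windows of 150 bases in *Acot2* and 9.8% of those in *Acot1* were found unchanged in the other gene, 150 bases being the length of 1 read of a pair. With windows of 50 bases the shares were 24.5% and 23.7%. Every other window held at least 1 difference from the paralog. The deposited locus of *Acot1*, chr12:84009501-84017670, ends before the annotated gene. The transcript length behind its FPKM may thus differ from the one used here. This bears on its level against *Acot2* and on the share of its windows. How the authors' counting treated shared reads is not given in the sources used here, and its part in the values of *Acot1* and *Acot2* was not tested.

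The stretches upstream of their starts are shown because the 2 genes moved in opposite directions. The longest run present in both has 9 bases. CCAAT, or ATTGG for the same letters on the other strand, is in capitals, and the sequences are those of RefSeq (GRCm38.p6, plus strand).
Acot2 upstream, chr12:83987611-83987860: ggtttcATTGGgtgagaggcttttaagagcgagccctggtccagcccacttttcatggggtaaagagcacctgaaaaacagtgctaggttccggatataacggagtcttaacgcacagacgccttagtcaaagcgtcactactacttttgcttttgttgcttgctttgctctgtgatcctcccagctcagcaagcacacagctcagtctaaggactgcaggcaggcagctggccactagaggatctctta
Acot1 upstream, chr12:84009252-84009489: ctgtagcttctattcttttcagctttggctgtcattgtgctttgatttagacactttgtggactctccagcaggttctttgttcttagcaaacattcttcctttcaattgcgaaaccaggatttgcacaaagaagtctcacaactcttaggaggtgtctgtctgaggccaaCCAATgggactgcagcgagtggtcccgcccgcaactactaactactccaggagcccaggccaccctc

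*Acot2* and *Acot1* lie 15616 bases apart in a cluster of thioesterase genes. The cluster genes *Acot3*, *Acot5* and *Acot6* did not exceed 0.0402 FPKM in any library, and *Acot4* was not listed. Within 500 kb of the start of *Acot2*, 22 other genes were tested. Of these 3 were higher and 10 lower in Tyr-H at an adjusted p up to 0.05 (limma), where 17.9% of all tested genes were higher and 39.9% lower. Their median log2 fold change was -0.18, and that of all tested genes was -0.15. Beside *Acot2*, 2 genes in the window were called, both lower: *Rbm25*, an RNA-binding splicing factor gene, at -1.52 (SE 0.08, adjusted p = 9e-07, limma) and *Gm29361* at -1.57, which overlaps *Rbm25* on the opposite strand and cannot be told apart from it without strand.

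**Figure D4:**
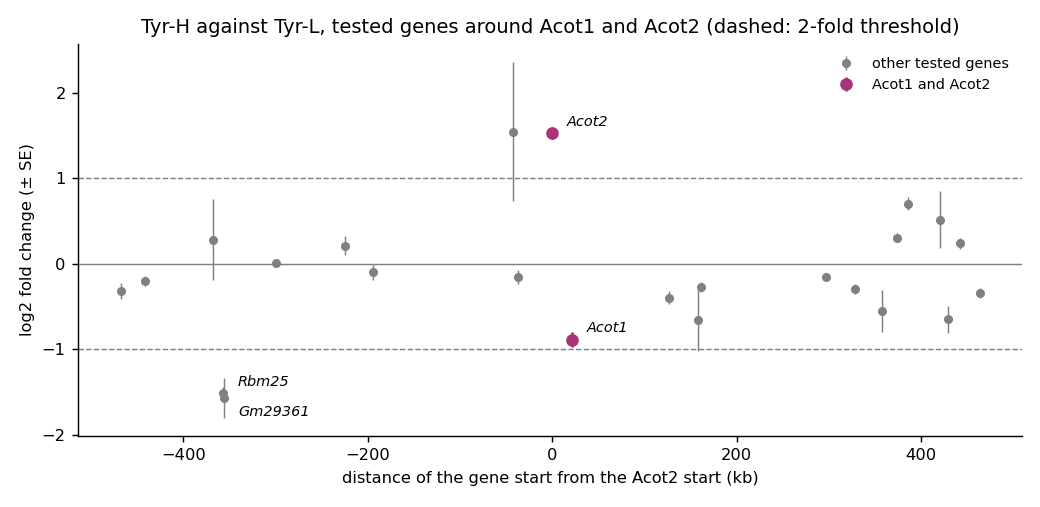
Log2 fold change (± SE, limma) of the tested genes within 500 kb of the start of *Acot2*, against distance from that start in kb. *Acot2* lies at 1.53, *Acot1* beside it at -0.89, and *Rbm25* and *Gm29361* at -1.52 and -1.57. The gray point near *Acot2* is *Gm26571*, at 1.54 with an SE of 0.82, which did not pass the test (adjusted p = 0.13, limma), and dashed lines mark 2-fold.

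Among the other acyl-CoA thioesterases, 6 of 14 were tested. Of the 6, 3 were higher and 1 lower at an adjusted p up to 0.05 (limma), against 17.9% and 39.9% of all tested genes. *Them4*, a mitochondrial thioesterase gene, was called higher, as were 2.96% of all tested genes. It went from 3.40 ± 0.499 FPKM in Tyr-L to 7.77 ± 0.230 in Tyr-H (log2 fold change 1.18, SE 0.10, adjusted p = 1.4e-05, limma). *Acot9*, also mitochondrial, rose from 22.4 ± 0.460 to 31.7 ± 0.839 FPKM, a log2 fold change of 0.50. *Acot7*, mainly cytosolic, rose from 61.9 ± 1.44 to 77.6 ± 2.90 FPKM. *Acot13* fell from 40.0 ± 2.38 to 32.3 ± 1.78 FPKM, a log2 fold change of -0.31 that came to -0.16 after median ratio scaling (adjusted p = 0.034, limma). The peroxisomal *Acot8* was at 6.40 ± 0.472 FPKM in Tyr-L and 5.37 ± 0.996 in Tyr-H (adjusted p = 0.095, limma), and *Acot11* was at 0.611 ± 0.0789 and 0.666 ± 0.131 FPKM (adjusted p = 0.69, limma). *Acot10* did not exceed 0.0727 FPKM, and *Acot12* was not listed. Per length, *Acot7* had the highest level of all thioesterase genes listed here in both groups.

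The other genes of the pathway were taken as 12 lists by role, the thioesterases above among them, with 90 genes of which 73 were tested. Of the 73, 3 were called higher and 1 lower, against 2.96% and 5.78% of all tested genes. At an adjusted p up to 0.05, 25 were higher, 18 lower and 30 neither, where 17.9% of all tested genes were higher and 39.9% lower. The median log2 fold change was 0.05. After median ratio scaling it was 0.21, with 34 higher and 11 lower, where 27.9% of all tested genes were higher and 27.0% lower. *Acad12* then reached 2-fold (1.04), which made 4 called higher. The balance of several lists depended on the scaling, so where the counts of a list changed after median ratio scaling both are given.

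The counts in this paragraph are read against 17.9% of all tested genes higher and 39.9% lower, or 27.9% and 27.0% after median ratio scaling. Of the 6 other carnitine shuttle genes, 1 rose and 3 fell, and after median ratio scaling 2 rose and 1 fell. Those that fell included *Cpt1c*, a relative of *Cpt1a* known from brain (13.4 ± 0.639 to 9.06 ± 0.845 FPKM, log2 fold change -0.56), and *Slc25a20*, the carrier that exchanges acylcarnitine for carnitine (15.3 ± 0.377 to 13.1 ± 0.253 FPKM, -0.23, but -0.07 after median ratio scaling). Of 7 tested genes of fatty acyl-CoA activation 3 rose and none fell (5 and 0 after median ratio scaling), among them the synthetase gene *Acsl5* (37.6 ± 0.845 to 46.9 ± 0.351 FPKM, 0.32) and the transporter gene *Slc27a1* (14.0 ± 1.37 to 17.3 ± 0.430 FPKM, 0.31). The malonyl-CoA list mixes genes for making, removing or controlling this inhibitor of Cpt1, so its counts give no direction for malonyl-CoA. In it *Acacb*, the acetyl-CoA carboxylase of the mitochondrial surface, rose from 3.02 ± 0.224 to 5.01 ± 0.902 FPKM. *Prkaa1*, a catalytic subunit of AMPK, fell from 27.7 ± 1.13 to 22.8 ± 0.883 FPKM (-0.28, and -0.12 after median ratio scaling, adjusted p = 0.045, limma). Of the 5 genes of this list 2 rose and 2 fell, and after median ratio scaling 3 rose and 1 fell.

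Inside the mitochondrion, 4 of 9 other acyl-CoA dehydrogenases rose and 2 fell (4 and 1 after median ratio scaling). Beside this and the next lists, 17.9% of all tested genes were higher and 39.9% lower (27.9% and 27.0% after that scaling). *Acad10* rose from 3.13 ± 0.0725 to 5.41 ± 0.131 FPKM (log2 fold change 0.77) and *Acad12* from 1.44 ± 0.211 to 2.76 ± 0.301 FPKM (0.89). Of the 3 genes that pass the electrons on, *Etfdh* fell from 30.5 ± 0.410 to 22.5 ± 0.336 FPKM (-0.44, and -0.28 after median ratio scaling) and *Etfa* from 83.0 ± 2.26 to 75.4 ± 1.06 FPKM (-0.14), the latter at 0.02 after median ratio scaling, and 1 rose. After that scaling 1 of the 3 rose and 1 fell. *Echs1*, the short-chain hydratase, rose from 48.8 ± 0.640 to 67.3 ± 2.47 FPKM (0.46), and *Hadh*, the dehydrogenase of the next step, fell from 41.5 ± 0.151 to 31.8 ± 1.14 FPKM (-0.39, and -0.23 after median ratio scaling). Their list of 5 had 2 higher and 1 lower, and 3 and 1 after median ratio scaling. Among the 5 auxiliary enzymes for unsaturated chains, 2 rose, with *Decr1* at 0.23, and 1 fell, *Ech1* at -0.21. After median ratio scaling *Decr1* was at 0.38 and *Ech1* at -0.06, and 2 rose and 0 fell.

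In peroxisomal oxidation, 2 of 12 tested genes rose and 3 fell, against 17.9% and 39.9% of all tested genes. After median ratio scaling 5 rose and 2 fell, against 27.9% and 27.0%. *Acox2*, the branched-chain acyl-CoA oxidase, was called higher but was near the limit of detection: it was unlisted in 2 Tyr-L libraries, at 0.0670 FPKM in the other, and at 0.521, 0.545 and 0.604 FPKM in Tyr-H. The PPAR receptors control many of these genes. *Ppara* was at 0.0898 ± 0.0598 FPKM in Tyr-L and 0.144 ± 0.0220 in Tyr-H, *Pparg* at 0.0936 ± 0.0475 and 0.268 ± 0.240 FPKM, and *Ppard* at 15.2 ± 0.183 and 14.4 ± 1.18 FPKM. None of these receptor genes passed the test (adjusted p = 0.33, 0.18 and 0.33, limma). Their partners moved apart, with *Rxrb* at 0.58 and *Rxra* at -0.53. Of 9 PPAR target genes outside oxidation 3 were tested, and *Fabp3* fell (-0.75) while *Plin2* rose (0.21, and 0.36 after median ratio scaling).

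**Figure D5:**
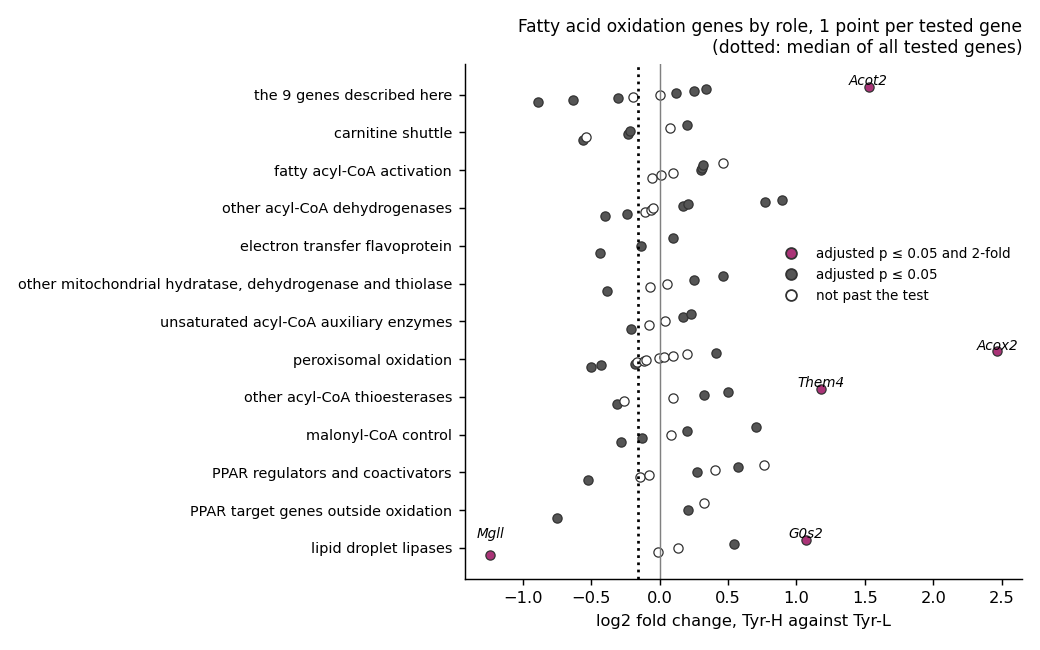
Log2 fold change in Tyr-H against Tyr-L of the 9 genes and of 12 lists of related genes, with 1 point per tested gene and a dotted line at the median of all tested genes (-0.15). The named points, *Acot2*, *Acox2*, *Them4* and *G0s2* on the right and *Mgll* on the left, are those called.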

How the data were processed

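Polyadenylated RNA of 3 Tyr-L and 3 Tyr-H libraries was sequenced in pairs of 150 bases on an Illumina HiSeq instrument. The authors deposited 1 table of FPKM values per library, normalized for transcript length and sequencing depth. The submitters' processing notes name Trimmomatic, HISAT2 and GRCm38.p6 without tool versions, and the quantifier and its handling of strand and of shared reads are not given in the sources used here. Groups and replicate numbers came from the labels. Genes without a value in a library were taken as 0. Positions are those of GENCODE M21 (GRCm38), counted from 1.

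The 14336 genes whose mean reached 0.1 FPKM were compared as log2(FPKM + 0.1) by limma 3.58.1 in R 4.3.3. The model had 1 group coefficient, eBayes used a trend of the variance with the level, and p-values were adjusted by Benjamini-Hochberg over these genes. Calls needed an adjusted p no higher than 0.05 and an absolute log2 fold change no smaller than 1, as in the study's methods. Fold changes are on the log2(FPKM + 0.1) scale, which understates those of low genes. "Rose", "fell", "higher" and "lower" in lists mean an adjusted p no higher than 0.05. Single genes and ratios also had a two-sided exact permutation test. Depth was estimated from the median of low values, multiplied by transcript length, inside a preset window that bounds the estimate. At most 28.8% of low values lay within 0.1 steps of a whole multiple of that median. An even spread would give 20%, so the data barely set the depth, no count test was run and fragment numbers are rough. Other steps ran in Python 3.11.15 (scipy 1.17.1, numpy 2.4.6, pandas 2.3.3, matplotlib 3.10.9), and the fit was tested on simulated data.

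The members and lists were chosen with earlier results of these data known. From each list the text names every called gene, otherwise the 2 genes with the largest absolute change among those past the test whose mean reached 1 FPKM, and also all *Acot* genes, genes that overlap a member, called neighbours of *Acot2* within 500 kb and the 3 genes most like it. Receptor genes of the PPAR list were named after their values were seen. Alternatives varied the pseudocount, the filter, the scaling, the variance model, the replicate block and the libraries. The scalings of sums of members were chosen after seeing the data.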

Additional observations from a re-analysis of the deposited data

How the results depend on the processing

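*Acot2* was called in all 16 alternatives, with log2 fold changes from 1.41 to 1.68, and *Acot1* stayed short of a call in all 16 (-0.99 to -0.72). Settings that varied only the filter, the variance model or the replicate block could not change these fold changes. Under them *Acot1* could not have reached 2-fold. *Acadm*, *Acadl*, *Acadvl* and *Hadha* kept their direction and their side of the threshold in all 16. *Cpt2*, at 0.0044, turned to -0.0898 with a total of 1000000 FPKM in each library and ranged from -0.0139 to 0.0164 when 1 library was left out. It passed the test after median ratio scaling (0.16) and quantile normalization (0.14, adjusted p = 0.028, limma). *Cpt1a* passed it with an equal total (-0.29, adjusted p = 0.045, limma) and without Tyr-L replicate 1 (-0.31), but was nearer 0 after median ratio scaling (-0.04, adjusted p = 0.76) and quantile normalization (-0.02, adjusted p = 0.91). Median ratio scaling, which divides out the median shift of all genes, turned the medians of the other acyl-CoA dehydrogenases from -0.05 to 0.11, of the electron transfer flavoprotein genes from -0.14 to 0.0161 and of peroxisomal oxidation from -0.05 to 0.10. The sum of the 7 oxidation genes turned from a log2 ratio of 0.0645 to -0.0295 at an equal total. Over all tested genes, 425 calls higher and 829 lower became 544 and 580 after median ratio scaling, 611 and 494 after quantile normalization, 457 and 1287 with a total of 1000000 FPKM, and 185 and 203 with a pseudocount of 1 FPKM.

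Libraries of the same replicate number did not deviate together (correlations of 0.0223, 0.0132 and -0.0834), so the numbers were not taken as pairs. With the replicate block, 1 member was called (*Acot2*), and 4 were higher and 3 lower past the test. In this balanced design the block cannot change a fold change or a mean difference. *Acot2* thus stayed at 1.53, and the differences in log2 ratio at 0.22 for *Hadha* to *Hadhb* and 2.42 for *Acot2* to *Acot1*. An exact sign-flip test of the differences within replicate numbers gave p = 0.25 for both ratios, the smallest value it allows. The block changed no call of a member. With 3 libraries per group no exact permutation p can fall below 0.1, and changes of low genes such as *Acox2* and *Mgll* rest on few fragments.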

Other observations

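The list of lipid droplet lipases, which free stored fatty acids, also holds regulators of them, 5 tested genes in all. It had 1 called rise, of an inhibitor gene, and 1 called fall, against 2.96% and 5.78% of all tested genes. No lipase gene was called higher. At an adjusted p up to 0.05 (limma), 2 of the 5 were higher and 1 lower in Tyr-H, against 17.9% and 39.9% of all tested genes. After median ratio scaling these were 3 and 1, against 27.9% and 27.0%. *G0s2*, an inhibitor of adipose triglyceride lipase, was at 1.58, 2.27 and 2.41 FPKM in Tyr-L and at 3.37, 4.62 and 5.58 FPKM in Tyr-H (log2 fold change 1.07, SE 0.20, adjusted p = 0.0015, limma). *Mgll*, the monoglyceride lipase, was at 0.914, 0.653 and 0.775 FPKM in Tyr-L and at 0.233, 0.165 and 0.476 FPKM in Tyr-H (-1.24, SE 0.30, adjusted p = 0.0063, limma). *Pnpla2*, which encodes the lipase that *G0s2* inhibits and which was named after its values were seen, rose from 10.3 ± 0.459 to 15.0 ± 0.691 FPKM (SD, n = 3 each). In each of these 3 genes the groups did not overlap, as in 64.0% of all tested genes.

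The genes whose values over the 6 libraries were most like those of *Acot2* were *Dpysl3*, *Unc5b* and *Axl*, measured by the root mean square difference in log2(FPKM + 0.1) after centring each gene (0.0728, 0.0817 and 0.0818). Their log2 fold changes were 1.49, 1.48 and 1.55. With 2 groups of 3 libraries, this likeness is mostly the size of the difference between the groups.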
